A study of Schizosaccharomyces pombe with 6 samples.

Results

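The 7 mRNAs described here were grouped as coding for enzymes that build and reshape the glucan of the fission yeast cell wall, which *gls2* fits less well. They were taken by systematic identifier from the 7001 genes counted in *aal1* pull-downs. They were *bgs1* (SPBC19G7.05c), *bgs3* (SPAC19B12.03), *bgs4* (SPCC1840.02c), *ags1* (SPCC1281.01), *psu1* (SPAC1002.13c), *gas1* (SPAC19B12.02c) and *gls2* (SPAC1002.03c). All 7 identifiers were found, and all 7 passed the filter on low counts. None of them was called different between strains once p-values were adjusted over all RNAs tested.

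The data come from ChIRP-seq, in which biotinylated probes antisense to the lncRNA *aal1* fish it out of formaldehyde-fixed cells and the RNA recovered with it is sequenced. All cultures were harvested on Day 6 of stationary phase in minimal medium (EMMG), and each of 3 strains gave 2 libraries that the study's methods describe as grown and processed independently. Wild-type (wt) cells were 972h-. The *aal1-pOE* cells were 972h-/leu1-32 and carried *aal1* on a plasmid behind *P41nmt1*, a promoter that thiamine represses. The *aal1∆* cells were 972h- with *aal1* removed by CRISPR-Cas9, and show what probes and beads recover without their target. No empty-vector pull-down was analysed here, so that plasmid, leu1-32 background and *aal1* cannot be told apart in *aal1-pOE*.

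The wall of *Schizosaccharomyces pombe* is built mainly of beta-glucan, alpha-glucan and galactomannan. Beta-glucan synthases of the Bgs family and the alpha-glucan synthase Ags1 are large integral proteins of the plasma membrane that extrude the polymer outwards. Glucanosyltransferases and glucosidases then elongate, branch or trim the chains, and these steps are best known from cells that grow and make septa, whereas the cells here had stopped dividing. Of the mRNAs, 6 fit the description of glucan synthesis and remodelling, and *gls2* fits it less well. Its product is annotated as the alpha subunit of glucosidase II, an enzyme of the endoplasmic reticulum known for trimming glucose from N-glycans.

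In the annotation of assembly ASM294v3, each of the 7 genes has 1 exon and no intron. The synthase genes are long, with 6443 nt for *bgs1* (minus strand of chromosome II), 6962 nt for *bgs3* (plus strand of chromosome I), 7794 nt for *bgs4* (minus strand of chromosome III) and 8667 nt for *ags1* (plus strand of chromosome III). The other genes lie on the minus strand of chromosome I, with 2030 nt for *psu1*, 2162 nt for *gas1* and 3156 nt for *gls2*. *gas1* and *bgs3* are neighbours, with 0 protein-coding genes between them. No annotated gene overlaps any of the 7 on the same strand, but antisense genes overlap 6 of them, *psu1* being the exception. Reads were counted by strand. No source used here names the build behind the counts, so genome positions are not printed.

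The 3 *bgs* genes are paralogs, and the stretches they share are shown because reads from one could otherwise be credited to another. Their longest identical runs, all within the coding sequence, are given below in capitals with 8 flanking bases on each side, read 5′ to 3′ along the mRNA as in the RefSeq assembly ASM294v3.
bgs1 with bgs3: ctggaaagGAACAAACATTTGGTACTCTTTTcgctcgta
bgs3 with bgs1: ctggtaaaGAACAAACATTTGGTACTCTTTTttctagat
bgs3 with bgs4: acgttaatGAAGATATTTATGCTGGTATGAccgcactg
bgs4 with bgs3: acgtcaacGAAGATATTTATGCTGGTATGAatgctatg
bgs1 with bgs4: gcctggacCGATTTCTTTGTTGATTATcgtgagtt
bgs4 with bgs1: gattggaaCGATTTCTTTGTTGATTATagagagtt

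The runs were 23, 22 and 19 nt long. Stretches of 67 nt were searched, the length of a read after the trimming stated for alignment. The methods also describe clipping of molecular indices, which would leave shorter reads, and shorter stretches were not searched across the assembly. At 67 nt, 0 of the 6377 stretches in *bgs1*, 0 of 6896 in *bgs3* and 0 of 7728 in *bgs4* occurred anywhere else in the assembly. The same held for *ags1*, *psu1*, *gas1* and *gls2*. Identity over a whole read therefore gave no way to exchange counts between these genes.

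The antisense probes could also catch an mRNA that shares sequence with *aal1*, and *aal1* could pair with an mRNA complementary to it. The probes cover only parts of *aal1*, and the study dropped those with longer matches elsewhere in the genome. Probe sequences were not used here, so whether a run found along the whole of *aal1* lies within a probe is not known. The longest run identical to a part of the 783 nt of *aal1* was 13 nt in *bgs1*, *bgs3* and *ags1*, 12 nt in *gls2* and 11 nt in *bgs4*, *psu1* and *gas1*. Of 5156 protein-coding genes, 12.8% had an identical run of 13 nt or longer and 61.4% one of 11 nt or longer. Long mRNAs hold such runs more often, and among genes of similar length 31.6% (*bgs1*), 33.3% (*bgs3*) and 41.4% (*ags1*) had one of 13 nt or longer. The longest run perfectly complementary to *aal1* was 14 nt in *gls2*, 12 nt in *ags1*, 11 nt in each *bgs* mRNA and 10 nt in *psu1* and *gas1*. Among all protein-coding genes 2.72% had a complementary run of 14 nt or longer, and among the 888 with an mRNA of similar length to that of *gls2* the share was 3.72%. The site lies in the coding sequence of *gls2*, at nucleotides 2593 to 2606 of the mRNA, opposite nucleotides 703 to 716 of *aal1*. It is shown because it was the longest of the 7, a choice made after the runs were known, and capitals mark the complementary bases.
gls2: taacttttAATTATAAGAAGGGagaatatc
aal1: atgtaggaCCCTTCTTATAATTttgttaaa
Such a match is a description of the letters and not a measured site of contact.

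The libraries were shallow, with totals from 40653 counts (*aal1∆* replicate 2) to 175263 (*aal1∆* replicate 1). *aal1* was counted 28 and 147 times in wt and 9540 and 20832 times in *aal1-pOE*, with 0 in both *aal1∆* libraries, which fits the labels. It took 10.4% and 25.3% of the counts of the *aal1-pOE* libraries, and rRNA took 25.7% to 54.4% across the 6 libraries. Together the 7 mRNAs had 2917 counts. Their summed share was 0.621% (95% Wilson interval 0.572% to 0.675%) and 0.334% (0.297% to 0.374%) in wt, 0.705% (0.653% to 0.761%) and 0.343% (0.305% to 0.385%) in *aal1-pOE*, and 0.551% (0.518% to 0.587%) and 0.433% (0.374% to 0.502%) in *aal1∆*. Both *aal1∆* libraries fell between the libraries of each other strain, and more recovery of an mRNA cannot be told apart from more of it in the cells. The strain mean of the share of all counts, on which the tests below were run, was 0.478% ± 0.203 (SD, n = 2) in wt. For *aal1-pOE* and *aal1∆* they were 0.524% ± 0.256 and 0.492% ± 0.0836. Exact two-sided permutation tests gave p = 1 for wt and for *aal1-pOE* against *aal1∆*, and p = 0.667 for *aal1-pOE* against wt, where 2 libraries against 2 allow no p below 0.33. Intervals from counts cover at most counting error and leave out differences between cultures and libraries. Reads that copy the same molecule are not independent, which makes such intervals too narrow.

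The synthases supplied most of the counts of the group. *bgs1*, *bgs3*, *bgs4* and *ags1* made up 73.4% of the counts of the 7 mRNAs, and *bgs4* alone 32.7%. Levels are given as normalised CPM (counts scaled to a common library total, with TMM factors that even out differences in RNA composition), and levels of different genes are compared only per kb of annotated gene. Per kb the order was different, since the synthase genes are long. *psu1* was highest at 472 ± 115 CPM per kb (SD over the 6 libraries), followed by *bgs4* at 219 ± 72.7, *bgs1* at 132 ± 38.0, *ags1* at 110 ± 35.7, *gls2* at 102 ± 37.2, *gas1* at 92.9 ± 50.8 and *bgs3* at 54.2 ± 36.7. The range of *psu1* did not overlap that of *bgs4*, and *bgs4* exceeded *bgs1* in 6 of 6 libraries although their ranges overlapped. From *bgs1* through *ags1* and *gls2* to *gas1*, each step between neighbours held in only 3 of 6 libraries, although *bgs1* lay above *gas1* in 6 of 6. *gas1* lay above *bgs3* in 6 of 6. Among the 1292 nuclear mRNAs tested, whose median was 78.2 CPM per kb, 92.3% lay below *psu1*, 82.7% below *bgs4* and 33.6% below *bgs3*.

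**Figure D1:**
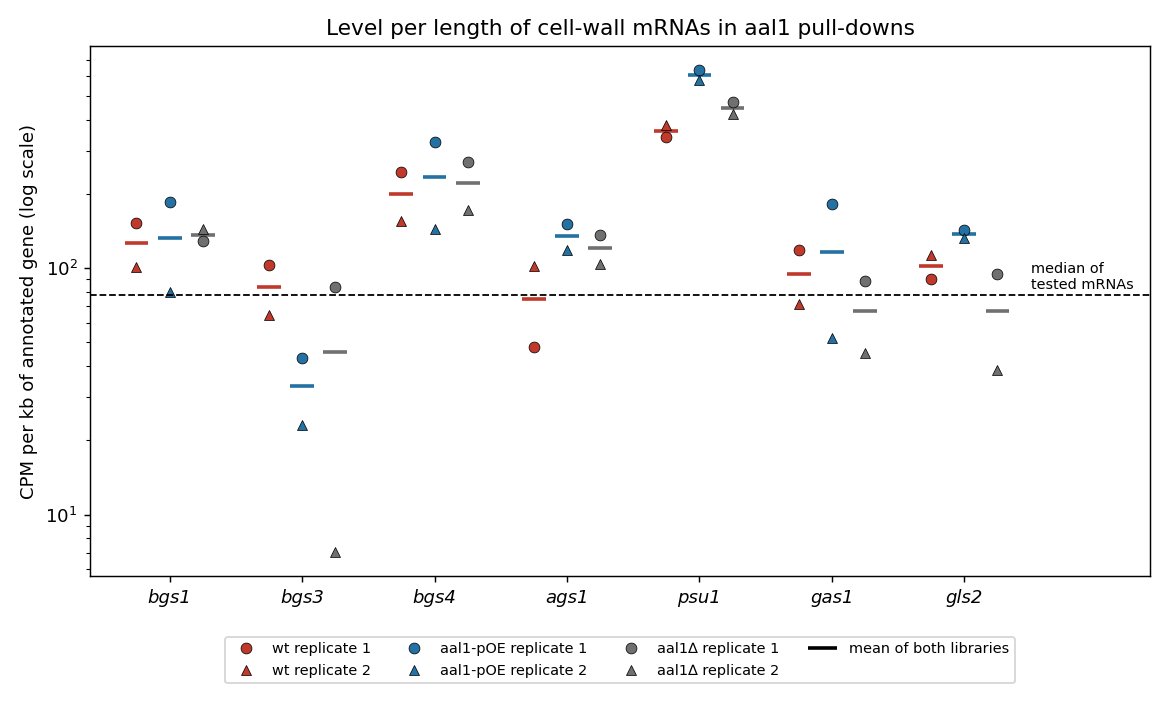
Normalised read count per kb of gene (CPM per kb, log scale) of each mRNA in each library, with circles for replicate 1, triangles for replicate 2 and short bars for the mean of both libraries of a strain. The dashed line is the median of tested nuclear mRNAs, 78.2 CPM per kb; *psu1* lay above it in every library, and *bgs3* in *aal1∆* replicate 2 was the lowest point at 7.02.

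*bgs4* encodes the synthase that makes most of the branched beta-glucan of the wall and secondary septum. It had 202 and 78 counts in wt, 220 and 70 in *aal1-pOE*, with 330 and 55 in *aal1∆*. In normalised CPM this was 1913 and 1211, 2540 and 1126, and 2102 and 1345. The strains overlapped, and each had 1 high and 1 low library. The log2 fold change over *aal1∆* was -0.15 (standard error 0.401) in wt and 0.08 (standard error 0.400) in *aal1-pOE*. For wt the 95% interval of this difference ran from -0.95 to 0.65, so that changes of nearly 1 log2 unit in the lower direction could not be told from none.

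*bgs1* encodes the synthase of the linear beta-glucan of the primary septum. It had 104 and 42 counts in wt, 104 and 32 in *aal1-pOE*, with 131 and 38 in *aal1∆*, or 985 and 652, 1201 and 515, and 834 and 929 normalised CPM. Both *aal1∆* libraries fell between those of each other strain. Its fold changes were the smallest of the 7 in all 3 comparisons, with log2 values of -0.09 (standard error 0.431) for wt over *aal1∆*, -0.02 (standard error 0.432) for *aal1-pOE* over *aal1∆* and 0.07 (standard error 0.429) for *aal1-pOE* over wt. The signs were not stable, as the first and the last turned with scaling to library size only and the other with RLE size factors.

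*bgs3*, the remaining synthase of vegetative cells in the group, was the most uneven. It had 76 and 29 counts in wt, 26 and 10 in *aal1-pOE*, with 92 and 2 in *aal1∆*, which gave 720 and 450, 300 and 161, and 586 and 48.9 normalised CPM. The *aal1∆* libraries differed by 3.58 on the log2 scale, and the one with 2 counts has an exact Poisson interval of 5.92 to 177 CPM against 472 to 719 for the other. They thus straddled every library except wt replicate 1. Both *aal1-pOE* libraries lay below both wt libraries, and the log2 fold change between these strains was -1.33 (standard error 0.625, unadjusted p = 0.0369, adjusted p = 0.995, edgeR's quasi-likelihood test). Over *aal1∆* it was 0.74 (standard error 0.599) in wt and -0.59 (standard error 0.625) in *aal1-pOE*, and both rested on the *aal1∆* library used. Without *aal1∆* replicate 1 they were 3.64 and 2.31 (adjusted p = 0.359 and 0.520, edgeR), and without *aal1∆* replicate 2 the first was -0.0437.

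*ags1* encodes the essential alpha-glucan synthase. Its counts were 44 and 57 in wt, 113 and 64 in *aal1-pOE*, with 186 and 37 in *aal1∆*, or 417 and 885, 1305 and 1030, and 1185 and 905 normalised CPM. Both wt libraries lay below both libraries of each other strain, although wt replicate 2 was close to *aal1∆* replicate 2 and its Poisson interval, 670 to 1147 CPM, held the values of *aal1∆* replicate 2 and *aal1-pOE* replicate 2. The log2 fold change was -0.72 (standard error 0.421, unadjusted p = 0.0927) for wt over *aal1∆* and 0.87 (standard error 0.421, unadjusted p = 0.0432) for *aal1-pOE* over wt, with adjusted p of 0.999 and 0.995 from edgeR. Both sizes depended on the wt library used, being -0.19 and 0.35 without wt replicate 1 and -1.36 and 1.54 without wt replicate 2. The TMM factors of the wt libraries, 1.33 and 0.80, widened the gap between them. The 44 and 57 counts of *ags1* came from 79122 and 80520 counts of all tested RNAs. It did not follow the other synthases between the libraries of wt, where *ags1* was lower in replicate 1 and the 3 *bgs* mRNAs were higher there.

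*psu1* encodes a protein of the SUN family, annotated as a beta-glucosidase and known for a part in the separation of daughter cells. In normalised CPM its replicates lay close together in all 3 strains, but in wt and *aal1-pOE* this rested on the TMM factors. It had 73 and 50 counts in wt, 112 and 73 in *aal1-pOE*, with 150 and 35 in *aal1∆*. The normalised CPM were 691 and 777, 1293 and 1175, and 955 and 856. On this scale the 3 strains did not overlap, with wt lowest and *aal1-pOE* highest. The library of replicate 1 was 0.890, 1.10 and 1.12 times that of replicate 2. Depth alone left the replicates of wt and *aal1-pOE* further apart. All tested RNAs together had 79122 and 80520 counts in wt, and 82966 and 75471 in *aal1-pOE*. The log2 fold changes were -0.31 (standard error 0.409) for wt over *aal1∆*, 0.44 (standard error 0.404) for *aal1-pOE* over *aal1∆* and 0.75 (standard error 0.406, unadjusted p = 0.0676) for *aal1-pOE* over wt, with adjusted p of 0.995 or more (edgeR). The last has a 95% interval of -0.06 to 1.56.

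*gas1*, the gene of a glucanosyltransferase that lengthens beta-glucan chains, had the fewest counts of the group. They were 27 and 10 in wt, 34 and 7 in *aal1-pOE*, with 30 and 4 in *aal1∆*, or 256 and 155, 393 and 113, and 191 and 97.8 normalised CPM. The strains overlapped, and replicate 1 was the higher library in each. Its standard errors were the largest of the 7, 0.816 for a log2 fold change of 0.44 in wt over *aal1∆* and 0.813 for 0.75 in *aal1-pOE* over *aal1∆*. *gls2* had 30 and 23 counts in wt, 39 and 26 in *aal1-pOE*, with 47 and 5 in *aal1∆*, or 284 and 357, 450 and 418, and 299 and 122 normalised CPM. Both *aal1-pOE* libraries lay above the other 4, but the log2 fold change over *aal1∆*, 0.94 (standard error 0.630, unadjusted p = 0.139, adjusted p = 0.9997, edgeR), leaned on the *aal1∆* library with 5 counts. Without it the value was 0.50, and without the other *aal1∆* library it was 1.90.

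None of the 7 mRNAs was called in any comparison. Of the 1329 RNAs tested, edgeR's quasi-likelihood test called 0.15% in wt against *aal1∆*, 0.376% in *aal1-pOE* against *aal1∆* and 0.226% in *aal1-pOE* against wt, and 0 of the 7 mRNAs in each (adjusted p of 0.995 or more). DESeq2 also called 0 of 7 in each. At an unadjusted p under 0.05 the counts were 0 of 7, 0 of 7 and 2 of 7, where 2.48%, 5.42% and 4.21% of all RNAs tested reached that p. The 2 were *bgs3*, lower in *aal1-pOE* than in wt as were 2.48% of all RNAs tested, and *ags1*, higher there as were 1.73%. The median log2 fold change of the 7 was -0.09 in wt and 0.15 in *aal1-pOE* over *aal1∆*, and 0.30 for *aal1-pOE* over wt, with 3, 5 and 6 of the 7 above 0, beside medians of all RNAs tested of 0.0012, 0.01 and 0.03. These comparisons share libraries, so their values are not independent of each other. The median in *aal1-pOE* rested on replicate 1, as without it the values were -0.42 over *aal1∆* and -0.51 over wt. The median for wt over *aal1∆* also turned with 1 library left out, to 0.15 without wt replicate 2 and 0.32 without *aal1∆* replicate 1.

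The order of the libraries gave a similar picture. Both wt libraries lay above both *aal1∆* libraries for 0 of the 7 and below them for 2 (*ags1* and *psu1*), where 14.3% and 16% of all RNAs tested did so. For *aal1-pOE* against *aal1∆*, 2 of the 7 (*psu1* and *gls2*) lay above and 0 below, beside 17.1% of RNAs in each direction. For *aal1-pOE* against wt, 3 of the 7 (*ags1*, *psu1* and *gls2*) lay above and 1 (*bgs3*) below, beside 17.8% and 16.5%. With so few mRNAs, each one moves such a share by a large step.

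**Figure D2:**
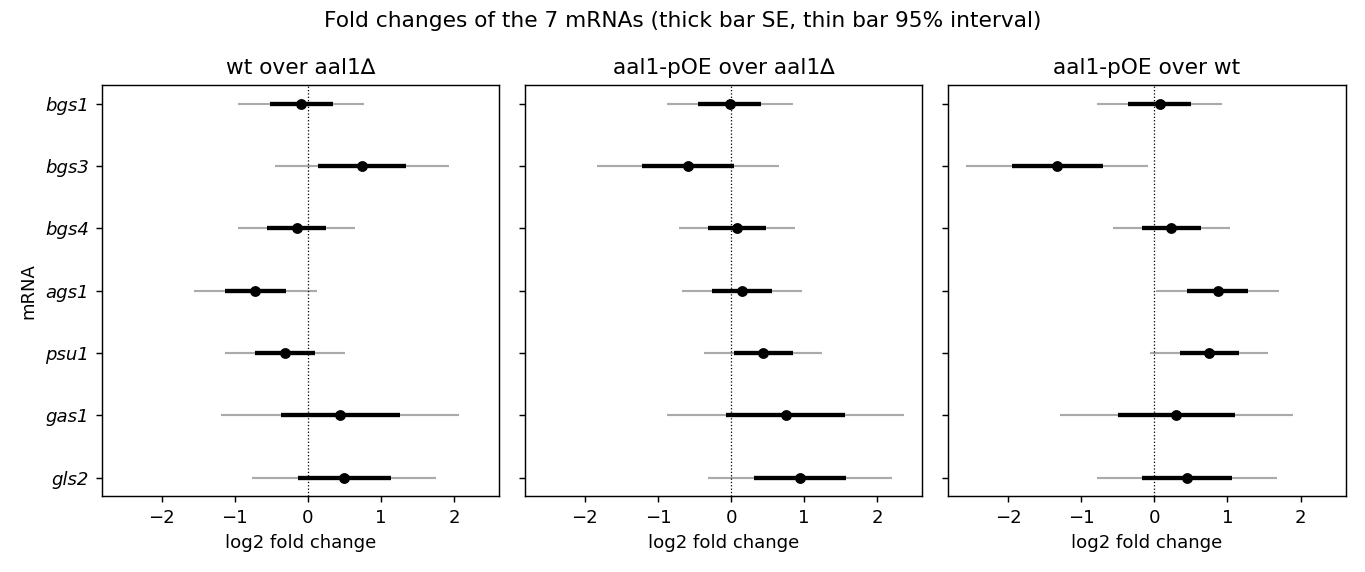
Log2 fold change of each mRNA in the 3 comparisons from edgeR, with the standard error as a thick bar and the 95% interval as a thin bar. The intervals reach 0 in every case except *bgs3* (-2.57 to -0.08) and *ags1* (0.03 to 1.71) for *aal1-pOE* over wt, neither of which passed after adjustment.

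For several of the mRNAs the libraries of one strain differed more than the strains did. *bgs3*, *bgs4* and *gas1* were higher in replicate 1 than in replicate 2 in all 3 strains, *bgs4* by 1.58-fold in wt, 2.26-fold in *aal1-pOE* and 1.56-fold in *aal1∆*. *bgs1* was higher in replicate 1 by 1.51-fold in wt and 2.33-fold in *aal1-pOE*, but not in *aal1∆*, where the ratio was 0.898. At the median, mRNAs with genes of 6 kb or more leaned the same way. The median log2 ratio of replicate 1 to replicate 2 was 0.27 in wt, 0.41 in *aal1-pOE* and 0.28 in *aal1∆* for the 53 tested mRNAs with genes of 6 kb or more, and -0.18, -0.19 and -0.11 for the 421 under 2 kb. The part of transcript length in the differences between libraries was not tested. Between strains, the 53 long mRNAs had median log2 fold changes of -0.06 in wt and 0.14 in *aal1-pOE* over *aal1∆*.

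**Figure D3:**
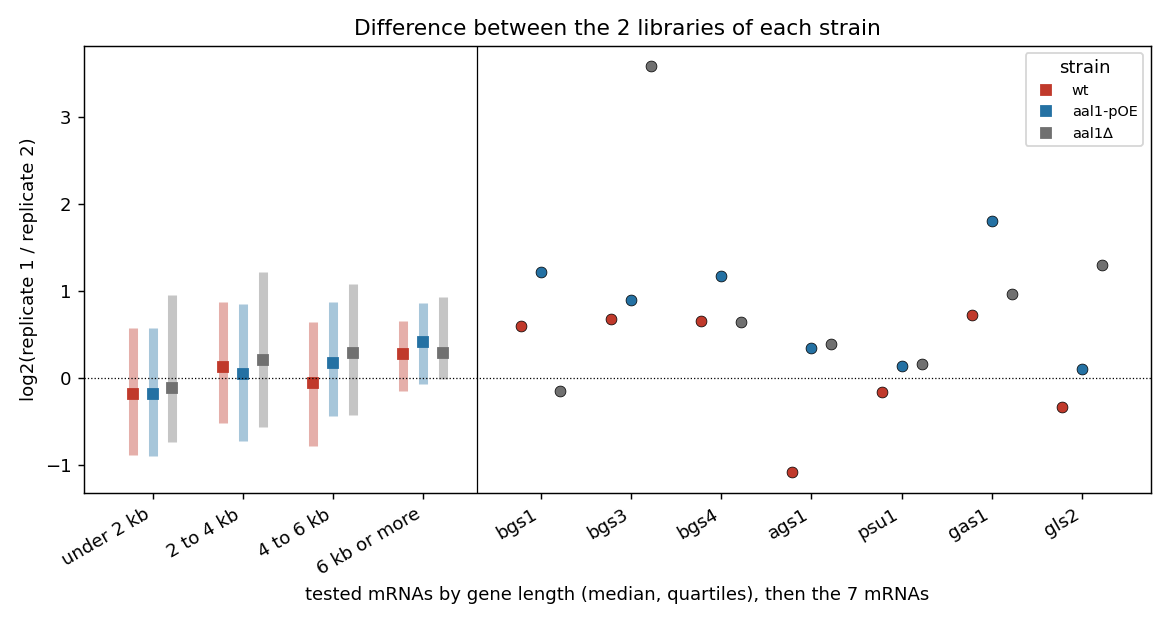
Log2 ratio of replicate 1 to replicate 2 within each strain, for tested nuclear mRNAs by gene length (squares are medians, bars span the quartiles, with the equivalent of 1 count added to each value) and for each of the 7 mRNAs (circles, nothing added). *bgs3*, *bgs4* and *gas1* lie above 0 in all strains, and *bgs3* in *aal1∆*, at 3.58, is the highest circle.

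The profile of *bgs4*, the member with the most counts, was most like those of *ggt1* (Pearson's r = 0.963), *nfs1* (0.961), *bms1* (0.951), *noc1* (0.950) and *ptc1* (0.930), measured on log2 of normalised CPM plus 1 over the 6 libraries. These genes had 53 to 112 counts in all, and with 6 libraries out of 3 strains, and 1329 RNAs to choose from, values of this size are a description only. Of the other members, *gas1* came 14th with 0.874 and *bgs1* 24th with 0.830, and *bgs3* (0.464), *psu1* (0.222), *gls2* (0.216) and *ags1* (0.0976) were further off.

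The wider wall pathway and the folding steps around *gls2* were described with 33 further genes, of which 18 had enough counts to be tested. In each of the 3 comparisons 0 of the 18 were called higher and 0 lower, where 0.15%, 0.376% and 0.226% of all RNAs tested were called. Their median log2 fold changes were -0.07 in wt and 0.42 in *aal1-pOE* over *aal1∆*, and 0.53 for *aal1-pOE* over wt. The medians of all RNAs tested were 0.0012, 0.01 and 0.03. Medians of the 18 were not refitted with a library left out, so how far they rest on 1 library is not known. At an unadjusted p under 0.05 there was 1 of 18, for *aal1-pOE* over wt, where 4.21% of all RNAs tested reached that p. It was *bgs2*, the synthase of the spore wall. It had 17 and 2 counts in wt, 30 and 22 in *aal1-pOE*, with 23 and 5 in *aal1∆*, and a log2 fold change of 1.78 for *aal1-pOE* over wt (unadjusted p = 0.0403, adjusted p = 0.995, edgeR).

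The other alpha-glucan synthase genes, *mok11*, *mok12*, *mok13* and *mok14*, were all tested and had 51 to 173 counts in total, against 501 for *ags1*. Among glucanosyltransferases and SUN family genes 4 of 6 were tested, the others being *gas4*, with 4 counts in all, and *psu2*, with 5. *gas2* had 385 counts and log2 fold changes of 0.11 in wt and 0.36 in *aal1-pOE* over *aal1∆*. Glucanases, which cut wall glucan, were mostly too rare, with 2 of 7 tested, *exg1* and *exg3*. The endoglucanase *eng1*, which opens the septum at cell separation, had 3 counts in 6 libraries, and *agn1*, which acts at the same step on alpha-glucan, had 6. Of 13 regulators of glucan synthesis 6 were tested. Around *gls2*, 4 of 5 genes of glucose trimming and calnexin-dependent folding were tested, and the calnexin gene *cnx1*, the most counted at 182, had values of -0.24 and -0.45. *gbs1*, the gene of the partner subunit of *gls2*, had 20 counts and was not tested.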

How the data were processed

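The authors aligned read pairs in HISAT2 2.2.1 and assigned them to genes in HTSeq 0.12.3, and the deposited table holds the raw counts of 7001 genes. The submitters' processing notes also name SAMtools 1.14. The strand settings stated for alignment and counting name opposite strands, and no collapsing of duplicate molecules is described. No source used here names the genome build. Names, lengths and sequences came from ASM294v3, which matched 6852 identifiers. All 6 libraries were fitted together with edgeR 4.0.16 in R 4.3.3 (TMM, filterByExpr, glmQLFit, glmQLFTest, 1329 RNAs, common dispersion 0.243, 3 residual and 70.4 prior degrees of freedom), with Benjamini-Hochberg adjustment at 0.05 over all RNAs tested. The prior degrees of freedom weigh the spread shared across RNAs, so a standard error rests mostly on that spread. The standard error is the log2 fold change over the square root of F. The 95% intervals use the t distribution on the prior plus the residual degrees of freedom. The fit was tested on simulated data. Replicates differed by more than sampling noise (ratio of chi-square to its degrees of freedom 9.92 to 12.7), so each library counts as 1.

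The 7 mRNAs, the wider lists and the tests were chosen with earlier results of these data known. All 7 are named, with those listed genes that led their list by counts or had an unadjusted p under 0.05, the 5 profiles most like *bgs4*, and others, such as *eng1*, *agn1*, *gas4* and *psu2*, chosen after their values were seen. The leading gene of the list of regulators is not reported here. In 1 list, *gbs1* replaced *gtb1*, which the annotation gives as gamma-tubulin. The alternatives were other scaling, filtering, gene sets, DESeq2 1.42.0, a fit of 4 libraries, a replicate block and each library left out. Figures used matplotlib 3.10.9 with python 3.11.15.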

Additional observations from a re-analysis of the deposited data

Results flagged for a closer look

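*psu1* was flagged because its wt libraries both lay below both *aal1∆* libraries and its *aal1-pOE* libraries both above them. Of all RNAs tested, 16% lay below in wt and 17.1% above in *aal1-pOE*, and the share that did both was not counted. In edgeR's quasi-likelihood test the unadjusted p was 0.446 for wt and 0.279 for *aal1-pOE* over *aal1∆*. The log2 fold change of 0.75 (standard error 0.406) for *aal1-pOE* over wt had an adjusted p of 0.995 in the same test. Both comparisons with *aal1∆* share its libraries.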

How the results depend on the processing

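None of the 7 mRNAs was called in any comparison under any alternative, over 273 refitted fold changes of which 252 kept their direction and 21 turned, with a lowest adjusted p of 0.359 (edgeR). Scaling to library size only shifted the median of all RNAs tested by -0.14 for *aal1-pOE* over *aal1∆* and -0.19 over wt. It turned *bgs1* to 0.00057 for wt over *aal1∆* and -0.13 for *aal1-pOE* over wt, and RLE size factors and DESeq2 turned it to 0.0132 and 0.0129 for *aal1-pOE* over *aal1∆*.

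With 1 library left out, the lone library of a strain being assumed to vary like the others, log2 fold changes for wt over *aal1∆* ran from -0.36 to 0.15 (*bgs1*), -0.0437 to 3.64 (*bgs3*) and -0.47 to 0.32 (*bgs4*). For *aal1-pOE* over *aal1∆* they ran from -0.75 to 0.51 (*bgs1*), -1.35 to 2.31 (*bgs3*), -0.62 to 0.59 (*bgs4*), -0.0524 to 0.46 (*ags1*) and -0.42 to 1.48 (*gas1*). For *aal1-pOE* over wt they ran from -0.71 to 0.59 (*bgs1*), -0.51 to 0.74 (*bgs4*) and -0.90 to 0.96 (*gas1*). The median of the 7 ran from -0.16 to 0.32 for wt over *aal1∆*, -0.42 to 0.61 for *aal1-pOE* over *aal1∆* and -0.51 to 0.74 over wt. Differences in the summed share ran from -0.158 to 0.129 percentage points for wt minus *aal1∆*, -0.149 to 0.213 for *aal1-pOE* minus *aal1∆* and -0.135 to 0.228 for *aal1-pOE* minus wt. The directions of *ags1* and *gas1* for wt over *aal1∆*, of *bgs3* and *ags1* for *aal1-pOE* over wt, and of *psu1* and *gls2* in all comparisons held under every alternative run, but not their size. With 1 library left out, values for wt over *aal1∆* ran from 0.0489 to 1.47 (*gls2*), 0.0702 to 1.17 (*gas1*), -1.36 to -0.19 (*ags1*) and -0.43 to -0.13 (*psu1*). For *aal1-pOE* over *aal1∆* they ran from 0.50 to 1.90 (*gls2*) and 0.33 to 0.61 (*psu1*), and for *aal1-pOE* over wt from 0.35 to 1.54 (*ags1*), -1.89 to -0.92 (*bgs3*), 0.23 to 0.66 (*gls2*) and 0.61 to 0.89 (*psu1*). Over all RNAs tested, the number called ran from 1 to 6 (main value 2) for wt over *aal1∆*, 2 to 6 (5) for *aal1-pOE* over *aal1∆* and 0 to 3 (3) for *aal1-pOE* over wt.

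The labels tie libraries of different strains only by a replicate number. The replicate differences of pairs of strains correlated at r = 0.087, 0.048 and -0.061 across genes, which are not independent replicates. Such values over all genes do not speak for subsets, as long mRNAs leaned to replicate 1 at the median in all 3 strains. What libraries of the same replicate number shared was not tested. With the replicate block the RNAs called numbered 2, 4 and 3 and the medians of the 7 were -0.13, 0.14 and 0.17, and it changed no call of the 7. Counts of 2 to 10 in single libraries of *bgs3*, *gls2* and *gas1* limit their precision.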
